A study of Mus musculus with 6 samples.

Results

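A set of 10 genes that NF-κB is known to switch on during inflammation was followed in mouse podocytes with and without a hairpin against the long non-coding RNA Tug1: Ptgs2, Ccl2, Ccl7, Cxcl1, Il6, Lcn2, C3, Nfkbia, Icam1 and Tnfaip3. Every gene probe of the array whose RefSeq transcript belongs to 1 of these genes was taken, which gave 11 probes of the 39429 on the array. C3 had 2 probes and each other gene 1, and together they took up 38 spots per array, because the probes of Ptgs2, Ccl2 and C3 were printed 10 times each. Of the 20659 gene symbols that the array's probes could be matched to, these genes are 10. Of the 11 probes, 7 were well above background on all 6 arrays, 10 probes of 9 genes entered the tests, and the Icam1 probe did not.

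Podocytes are the epithelial cells that cover the outside of the kidney's glomerular capillaries. The cells studied were kept dividing by a temperature-sensitive SV40 T antigen at 33 °C and were then differentiated for 10 days at 37 °C, and all of them had received a pGIPZ lentivirus. The 3 groups, each of 2 biological replicates, were hybridised to 1-colour arrays: shTug1 clone 2 and shTug1 clone 3, separate lines with a hairpin against Tug1, and shControl, which carried a scrambled hairpin. Each shTug1 line is a single clone, so that a change in 1 line cannot be told apart from a property of that clone, and the study asked what changes in expression when Tug1 is lowered.

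NF-κB is a dimeric transcription factor held in the cytoplasm by IκB proteins, of which the Nfkbia product IκBα is the best known. Signals from receptors for TNF, IL-1 or microbial products activate the IKK kinase complex, IκBα is destroyed, and the freed dimer enters the nucleus and binds κB sites near its target genes. Among the targets are chemokines that draw in leukocytes, cytokines, the prostaglandin-forming enzyme cyclooxygenase-2 (Ptgs2), innate defence proteins such as Lcn2 and C3, and the pathway's own brakes Nfkbia and Tnfaip3. In the glomerulus, podocytes are known to make chemokines, complement C3 and cyclooxygenase-2 under injury.

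The promoter sequences are shown for Cxcl1, Ptgs2, Lcn2 and C3, whose probes differed between groups, and for both brakes, because the 10 genes are grouped here as targets of 1 factor and these windows show what their starts share in sequence. Each is the 250 bases before the transcription start, 5′ to 3′ on the gene's strand, from RefSeq on GRCm38.p6. Capitals mark matches to the NF-κB κB consensus or to the C/EBP motif TTGCNNAA, on either strand.
Cxcl1 (chr5:90890995-90891244, + strand): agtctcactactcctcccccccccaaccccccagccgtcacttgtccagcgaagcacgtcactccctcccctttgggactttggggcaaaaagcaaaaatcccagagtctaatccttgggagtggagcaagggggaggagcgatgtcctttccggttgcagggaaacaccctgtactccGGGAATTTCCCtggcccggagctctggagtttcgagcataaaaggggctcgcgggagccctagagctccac
Nfkbia (chr12:55492648-55492897, - strand): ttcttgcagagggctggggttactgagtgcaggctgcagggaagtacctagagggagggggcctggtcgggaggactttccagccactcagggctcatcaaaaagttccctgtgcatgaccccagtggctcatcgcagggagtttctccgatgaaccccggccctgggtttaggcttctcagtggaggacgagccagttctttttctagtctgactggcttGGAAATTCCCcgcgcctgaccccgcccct
Tnfaip3 (chr10:19015411-19015660, - strand): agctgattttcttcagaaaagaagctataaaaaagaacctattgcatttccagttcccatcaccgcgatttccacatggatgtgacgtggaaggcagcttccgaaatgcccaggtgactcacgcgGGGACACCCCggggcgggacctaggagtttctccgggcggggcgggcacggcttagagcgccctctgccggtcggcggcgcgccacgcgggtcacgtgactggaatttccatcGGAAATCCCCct
Ptgs2 (chr1:150099781-150100030, + strand): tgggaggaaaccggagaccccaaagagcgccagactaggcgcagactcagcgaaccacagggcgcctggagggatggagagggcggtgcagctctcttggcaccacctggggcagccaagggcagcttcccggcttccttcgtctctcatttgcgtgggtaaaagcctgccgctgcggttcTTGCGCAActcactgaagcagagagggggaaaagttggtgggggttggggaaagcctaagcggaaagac
Lcn2 (chr2:32387740-32387989, - strand): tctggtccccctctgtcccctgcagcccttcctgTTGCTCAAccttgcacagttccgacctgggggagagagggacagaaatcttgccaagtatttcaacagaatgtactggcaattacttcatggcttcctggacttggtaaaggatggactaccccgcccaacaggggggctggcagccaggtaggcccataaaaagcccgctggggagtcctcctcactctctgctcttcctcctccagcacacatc
C3 (chr17:57228137-57228386, - strand): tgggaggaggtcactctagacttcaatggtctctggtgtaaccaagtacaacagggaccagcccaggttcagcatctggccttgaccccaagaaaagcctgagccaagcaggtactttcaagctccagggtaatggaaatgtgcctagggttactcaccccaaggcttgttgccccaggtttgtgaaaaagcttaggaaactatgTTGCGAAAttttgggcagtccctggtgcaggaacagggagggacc

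Sequence windows were found for 8 of the 10 genes (all but Ccl2 and Ccl7), with 9 promoters, since Tnfaip3 has 2 starts. The κB consensus matched in 4 of the 9 member promoters, those of Cxcl1, Nfkbia, Il6 and 1 of the Tnfaip3 starts, against 7.25% of all 32851 promoters of the same length. In Cxcl1 the capitals hold 2 overlapping κB matches on opposite strands, 71 to 62 and 70 to 61 bases before the start. The Nfkbia match lies 29 to 20 bases before the start, and the Tnfaip3 start has matches at 125 to 116, read on both strands, and at 12 to 3. The C/EBP motif matched in 4 member promoters, Ptgs2, Lcn2, C3 and Il6, against 9.56% of all promoters, and the AP-1 motif TGANTCA, not capitalised here, in 2, Il6 and Tnfaip3, against 6.75%. The 3 promoters printed last, Ptgs2, Lcn2 and C3, share a C/EBP match and hold no κB match in these windows. The Icam1 window held no match to these motifs. Only exact matches were counted, so a window without a match can still hold a similar stretch. The genes were picked as known NF-κB targets, so their κB share is a description and not a test. The matches describe letters and were not tested as binding sites.

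The level given for a probe is the log2 of its background-corrected intensity minus the array's 75th percentile over gene spots, so 0 stands for the 75th percentile and levels of different probes are not set against each other. That percentile lay at 569.2 to 1055 on the 4 arrays labelled shTug1 and at 324.3 and 363.3 on the shControl arrays, and 58.2% to 68.0% of probes were well above background. All 4 arrays labelled shTug1 were on 1 slide and both shControl arrays on another, so for every difference from shControl the hairpin and the slide cannot be told apart, while clone 3 minus clone 2 stays within a slide. The Tug1 probe that was well above background on all arrays went against the label of clone 2. It read −1.86 and −1.88 in clone 2, −3.10 and −3.23 in clone 3, and −2.88 and −2.49 in shControl, so clone 2 stood above shControl (0.81, limma adjusted p = 0.0823) and clone 3 below it (−0.48, adjusted p = 0.329). Another Tug1 probe, well above background on 3 arrays labelled shTug1 and on neither shControl array, was higher over both clones (2.39, adjusted p = 0.0306) and in clone 2 (3.46, adjusted p = 0.0172). In clone 3 it differed by 1.33 (adjusted p = 0.256), with replicate 1 at −6.36 beside −6.21 and −6.38 in shControl. This probe entered the tests only through clone 2, where it was high, so these sizes are not exact. Groups are therefore named below by what the arrays are labelled.

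Over both clones, chemokine Ccl7, chemokine Cxcl1 and cyclooxygenase-2 (Ptgs2) rose against shControl (Cxcl1 not with normexp background correction, where its direction turned), while the acute-phase protein gene Lcn2 and both probes of complement C3 fell. Ccl2, Il6, Nfkbia and Tnfaip3 did not pass the test, and Icam1 was not measurable. In counts, 3 of the 10 member probes tested rose, 3 fell and 4 did not pass (limma, adjusted p under 0.05 over all probes). Of all 25544 probes tested, 39.4% passed in this comparison, 11.8% higher and 27.6% lower, and the members' count is read against that share. The median member probe was −0.26 and the median of all probes −0.57, on the log2 fold scale. That shift of all probes was −0.18 after quantile normalization, where 50.1% of the called probes were higher, against 29.9% in the main scaling. A change relative to the median probe is therefore given beside the scaled one.

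**Figure D1:**
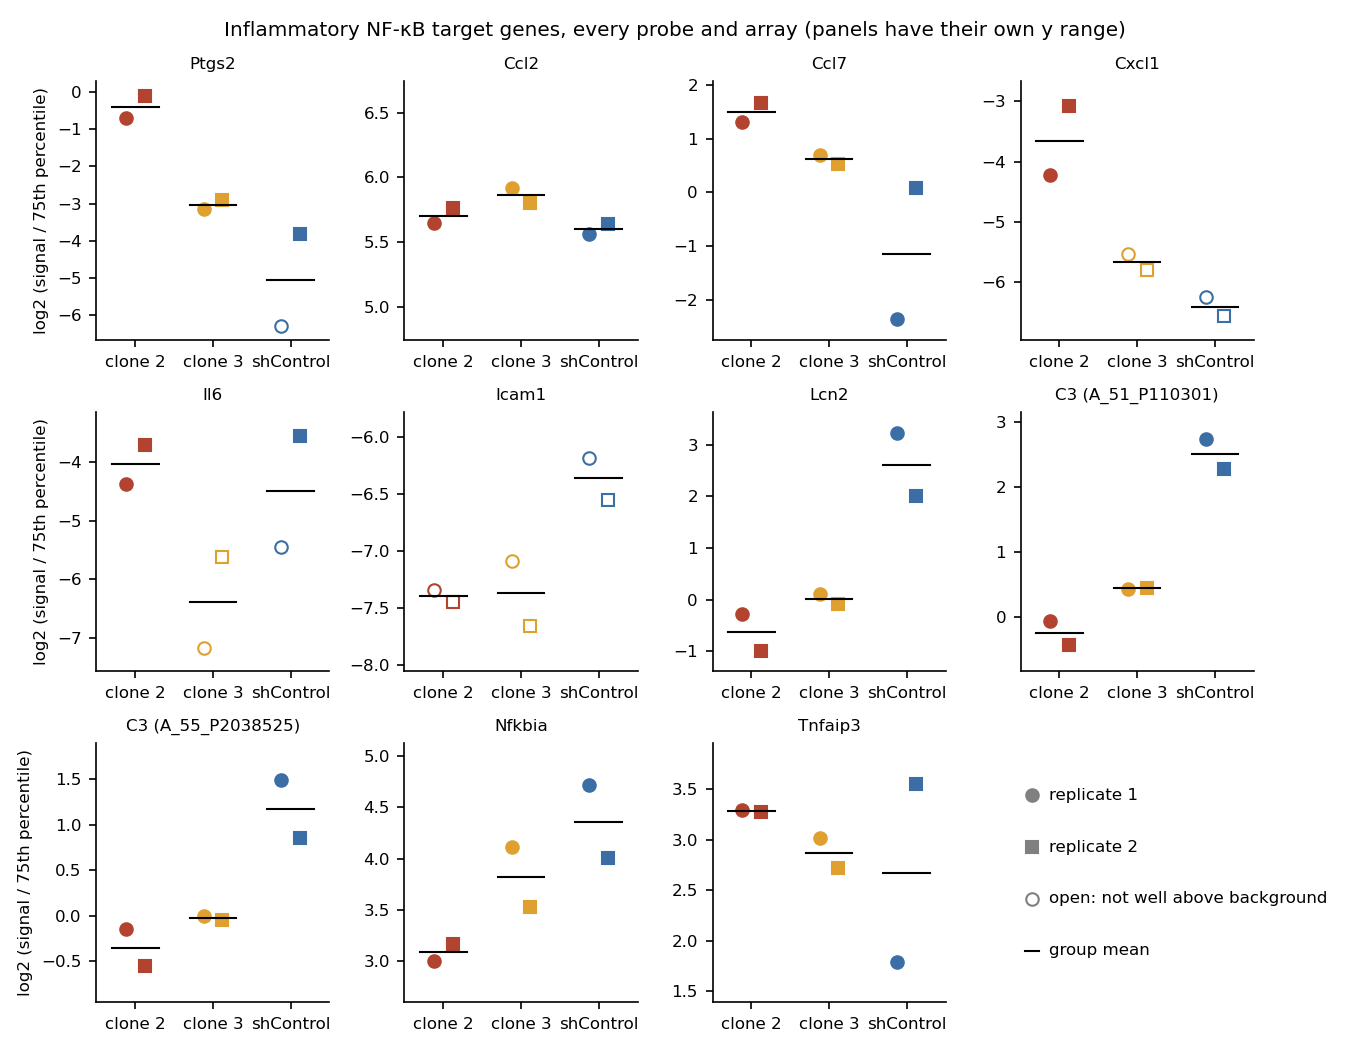
Level of each of the 11 member probes on every array (log2 signal relative to the array's 75th percentile, y axis with its own range per panel) for shTug1 clone 2, shTug1 clone 3 and shControl, with circles for replicate 1, squares for replicate 2, open symbols where the probe was not well above background and bars for group means. Lcn2 and C3 lie lower on all 4 arrays labelled shTug1 than on both shControl arrays, and Ptgs2 and Ccl7 lie higher.

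Among the chemokines, Ccl2 (MCP-1, which draws in monocytes) hardly moved on this scale. Its level was 5.65 and 5.76 in clone 2, 5.92 and 5.80 in clone 3, and 5.56 and 5.64 in shControl. Every array labelled shTug1 was above both shControl arrays, by 5.65 against 5.64 in the nearest pair. The difference over both clones was 0.18 ± 0.28 (SE, limma adjusted p = 0.601) with a 95% interval from −0.47 to 0.84. Before scaling the gap was wide: the intensity was 52920 and 51490 in clone 2, 34480 and 46440 in clone 3, and 15280 and 18090 in shControl. Its percentile among the probes of its own array was 97.8 and 98.0 in clone 2, 97.1 and 97.2 in clone 3, and 94.6 and 96.4 in shControl. Quantile normalization, which goes by rank, gave 1.06 (adjusted p = 0.0439). The authors' deposited value table, whose member differences over both clones match those after quantile normalization, also gave 1.06 (adjusted p = 0.032). Whether Ccl2 counts as higher therefore rests on the scaling.

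Ccl7 (MCP-3, a monocyte chemokine beside Ccl2 on chromosome 11) changed more. It read 1.32 and 1.67 in clone 2, 0.70 and 0.54 in clone 3, and −2.36 and 0.08 in shControl. All 4 arrays labelled shTug1 lay above both shControl arrays, and shControl replicate 1 lay far below replicate 2. Over both clones Ccl7 was 4.59-fold higher (2.20 ± 0.61 SE, limma adjusted p = 0.0294), or 2.77 above the median probe. Without shControl replicate 1 the difference was 0.98 (adjusted p = 0.0504) and without shControl replicate 2 it was 3.42, and after quantile normalization it was 2.46 (adjusted p = 0.0574). The call was also lost without clone 3 replicate 1 (adjusted p = 0.0767) and without clone 3 replicate 2 (adjusted p = 0.0847).

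Cxcl1 (KC, a neutrophil chemokine) was dim and was well above background on both clone 2 arrays alone. It therefore entered the tests only through the group where it was high, and its calls are to be read with that. It read −4.22 and −3.07 in clone 2, −5.53 and −5.79 in clone 3, and −6.24 and −6.56 in shControl, where it had only a bound. The 4 arrays labelled shTug1 did not overlap shControl, and clone 2 stood above clone 3. Cxcl1 was at least 1.59-fold higher in clone 2 than in shControl (measured means −3.65 against −6.40, limma adjusted p = 0.00964), where the bound sets each shControl array to the lowest signal well above background on it. Over both clones the test passed (adjusted p = 0.0182), with measured means of −4.65 and −6.40, but no bound is given because clone 3 was dim too. With normexp background correction the clone 2 difference shrank to 0.05 and that over both clones turned to −0.18 (adjusted p = 0.548), so the Cxcl1 calls rest on how dim spots are corrected. They were also lost over both clones without shControl replicate 1 (adjusted p = 0.0527), clone 3 replicate 1 (0.0615) or clone 3 replicate 2 (0.0681).

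Il6, the cytokine that drives the acute-phase response, was dim as well. It read −4.37 and −3.71 in clone 2, −7.17 and −5.62 in clone 3, and −5.45 and −3.56 in shControl. It was well above background on both clone 2 arrays and on shControl replicate 2 only, and the shControl arrays spanned the clone 2 values. No comparison with shControl passed in the main scaling. Over both clones the difference was −0.71 (limma adjusted p = 0.368). Clone 2 differed by 0.46 (adjusted p = 0.601) and clone 3 by −1.89 (adjusted p = 0.114), with 1 of 2 shControl arrays and no clone 3 array well above background. With normexp correction the clone 2 difference turned to −0.78 (adjusted p = 0.022). That over both clones then passed as a fall (−0.92, adjusted p = 0.00736).

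Ptgs2, which encodes cyclooxygenase-2, rose in clone 2 and over both clones. With the main scaling its difference was the largest of the members' rises, but with normexp correction that of Ccl7 was larger (1.72 against 1.00 over both clones). It read −0.69 and −0.12 in clone 2, −3.15 and −2.91 in clone 3, and −6.27 and −3.82 in shControl, and it was not well above background on shControl replicate 1. Ptgs2 therefore entered the tests only through the clones, where it was high, and its calls are to be read with that. The order was clone 2, then clone 3, then shControl, with no overlap between any of the 3 groups. Unscaled, the intensity was 657.3 and 872.2 in clone 2, 64.24 and 110.9 in clone 3, and 4.198 and 25.79 in shControl. Ptgs2 was 10.1-fold higher over both clones (3.33 ± 0.63 SE, limma adjusted p = 0.0136) and 25.0-fold higher in clone 2 (4.64 ± 0.72 SE, adjusted p = 0.0086). These folds use the shControl replicate 1 value as measured: without that array the difference over both clones was 2.10 (adjusted p = 0.0317), and it was 1.00 (adjusted p = 0.00764) with normexp correction. The call over both clones was lost without clone 3 replicate 2 (adjusted p = 0.0556).

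Icam1, the endothelial and epithelial receptor for leukocyte integrins, reached the background criterion on 0 of 6 arrays and was not tested. Its level lay between −7.66 and −7.09 on the arrays labelled shTug1 and was −6.18 and −6.55 in shControl, and no fold is given because both sides have only a bound.

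Lcn2, which encodes the iron-siderophore binding protein NGAL used as a marker of kidney injury, fell in both clones. It read −0.28 and −0.99 in clone 2, 0.11 and −0.09 in clone 3, and 3.22 and 2.01 in shControl. All 4 arrays labelled shTug1 lay below both shControl arrays, and the clones overlapped no shControl value. Lcn2 was 7.61-fold lower over both clones (−2.93 ± 0.42 SE, limma adjusted p = 0.00881), 2.36 below the median probe, and passed under all 14 alternatives that could be run for it. The unscaled intensity was lower too, at 868.5 and 479.2 in clone 2 and 613.8 and 778.8 in clone 3, against 3024 and 1462 in shControl.

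C3, the central complement component, was measured by 2 probes that moved the same way with different size. The probe printed 10 times read −0.05 and −0.43 in clone 2, 0.44 and 0.45 in clone 3, and 2.75 and 2.28 in shControl. The probe printed once read −0.15 and −0.55 in clone 2, 0.00 and −0.05 in clone 3, and 1.49 and 0.85 in shControl. On both probes all 4 arrays labelled shTug1 were below both shControl arrays. The first was 5.33-fold lower over both clones (−2.41 ± 0.31 SE, limma adjusted p = 0.00705) and passed under all 14 alternatives, and the other 2.56-fold lower (−1.36 ± 0.32 SE, adjusted p = 0.0208), passing under 10 of 13. Unscaled, the first probe was lower as well, at 702.9 to 1135 on the arrays labelled shTug1 against 2184 and 1762 in shControl. The other overlapped, at 569.5 to 949.8 against 909.7 and 654.9, so its fall rests on the scaling. RNA of cultured cells is pooled before it is measured, so fewer expressing cells and less RNA per cell cannot be told apart here.

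The brakes behaved differently from each other. Nfkbia (IκBα, which holds NF-κB back and is itself induced by it) read 3.00 and 3.17 in clone 2, 4.11 and 3.53 in clone 3, and 4.72 and 4.01 in shControl. Clone 2 lay below both shControl arrays, while the upper clone 3 array lay between the shControl arrays. Over both clones the difference was −0.91 ± 0.35 (SE, limma adjusted p = 0.0693), and in clone 2 it was 2.42-fold lower (−1.28 ± 0.40 SE, adjusted p = 0.0372). That clone 2 call was lost under 9 of 15 alternatives, among them quantile normalization (−0.33, adjusted p = 0.357), and the unscaled intensity of 8422 to 9828 on the arrays labelled shTug1 overlapped the 8528 and 5854 of shControl.

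Tnfaip3 (A20, the ubiquitin-editing enzyme that shuts the signal down) read 3.29 and 3.27 in clone 2, 3.02 and 2.72 in clone 3, and 1.79 and 3.55 in shControl. The shControl arrays lay on either side of all 4 arrays labelled shTug1. The difference over both clones was 0.40 ± 0.48 (SE, limma adjusted p = 0.512). It was −0.48 without shControl replicate 1 and 1.28 (adjusted p = 0.00855) without shControl replicate 2, so its direction rests on which shControl array is used.

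**Figure D2:**
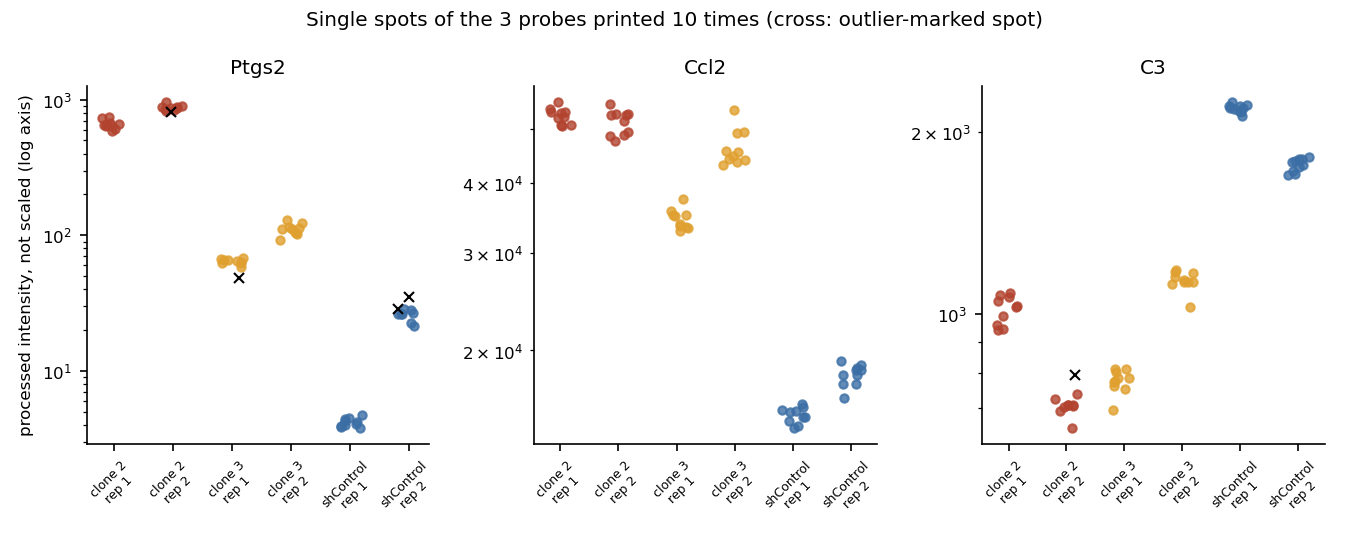
Unscaled processed intensity (y axis, log scale) of each of the 10 spots of the Ptgs2, Ccl2 and C3 probes on every array, with crosses for spots marked as outliers and left out of the means. Spots of a probe lay close together within an array, with a coefficient of variation of 1.50% to 9.54%, while replicate arrays of shControl differed for Ptgs2 by 4.198 against 25.79.

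The repeated spots show the measurement error inside an array. For the 3 probes printed 10 times, the coefficient of variation over spots was 1.50% to 9.54%, and 5 spots in all were marked as outliers. The 10 Ptgs2 spots of shControl replicate 1 read 3.817 to 4.746 and those of shControl replicate 2 that were kept read 21.58 to 28.51. The gap between these arrays is therefore wider than the spread of spots, and the spread that the tests use is that between arrays.

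Taken clone by clone, the arrays labelled clone 2 carried most of the calls. In clone 2, 3 member probes rose (Ptgs2, Ccl7 and Cxcl1) and 4 fell (Lcn2, both C3 probes and Nfkbia), where 43.2% of all probes passed, 12.4% higher and 30.9% lower. Ccl7 was 6.21-fold higher (2.63 ± 0.71 SE, limma adjusted p = 0.0245) and Lcn2 9.50-fold lower (−3.25 ± 0.49 SE, adjusted p = 0.00798) in clone 2. In clone 3, an unadjusted limma p under 0.05 was reached by 6 of the 10 members and by 9016 of all 25544 probes. After adjustment 0 member probes rose and 2 fell, where 8.99% of all probes passed, 4.78% higher and 4.21% lower. The 2 were Lcn2, 6.09-fold lower (−2.61, adjusted p = 0.0315), and the C3 probe printed 10 times (−2.07, adjusted p = 0.0287). Ptgs2 and Ccl7 pointed the same way in clone 3, at 2.02 (adjusted p = 0.1) and 1.76 (adjusted p = 0.125). Under the alternative settings the clone 3 difference ran from 0.04 to 3.24 for Ptgs2 and from 0.54 to 2.98 for Ccl7. In some settings, then, Ptgs2 in clone 3 hardly differed from shControl. Both clones are set against the same shControl arrays, so the 2 comparisons are not independent of each other. Of all called probes, 28.6% were higher in clone 2 and 53.2% in clone 3. These shares were 46.8% and 63.1% after quantile normalization, and 15.1% and 22.6% with normexp correction. The median member probe was 0.29 in clone 2 and −0.18 in clone 3, where the median of all probes was −0.72 and −0.41.

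**Figure D3:**
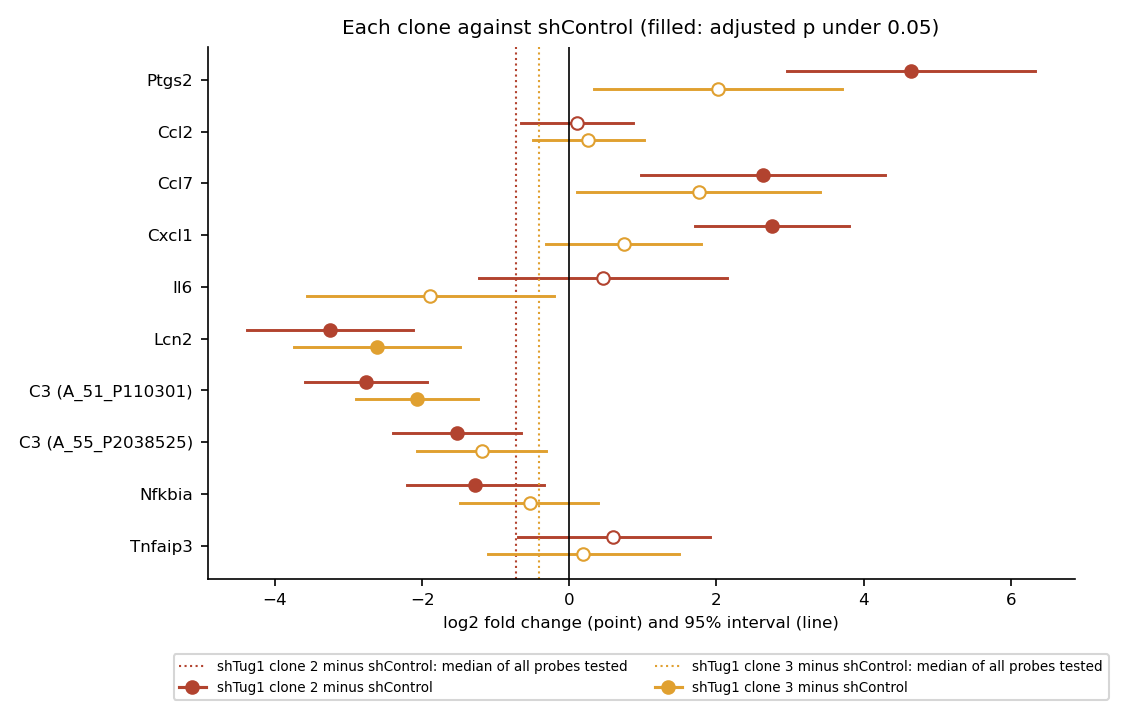
Log2 fold change against shControl (x axis) with its 95% interval for the 10 member probes tested, in shTug1 clone 2 (upper line of each pair) and shTug1 clone 3 (lower line), filled where the adjusted p was under 0.05; dotted lines give the median of all probes, −0.72 in clone 2 and −0.41 in clone 3. Ptgs2 in clone 2 lies highest at 4.64, and Lcn2 lies lowest in both clones.

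Set directly against each other, the clones gave 0 called member probes (limma, clone 3 minus clone 2), where 1.86% of all probes passed. An unadjusted p under 0.05 was reached by 3290 of all 25544 probes and by 3 members: Ptgs2, Cxcl1 and Il6. All 3 were lower in clone 3 than in clone 2, and Cxcl1 and Il6 passed the filter on dim probes only through clone 2, where they were high. Ptgs2 differed by −2.63 ± 0.72 (SE, adjusted p = 0.163), with a 95% interval from −4.31 to −0.94. Cxcl1 differed by −2.01 (adjusted p = 0.084), at least 3.85-fold lower in clone 3, and Il6 by −2.35 (adjusted p = 0.225), at least 2.76-fold lower. The Ptgs2 difference passed under 4 of 13 alternatives, among them normexp correction (−1.93, adjusted p = 0.00834). The intervals of Lcn2 (0.64, from −0.49 to 1.77) and Ccl7 (−0.87, from −2.52 to 0.78) leave room for differences of either sign. The median of all probes in this comparison was 0.36.

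Counting only order, 4 member probes were higher on all 4 arrays labelled shTug1 than on both shControl arrays (Ptgs2, Ccl2, Ccl7 and Cxcl1), 3 were lower on all (Lcn2 and both C3 probes) and 3 overlapped. Over all probes tested, 14% were higher in this way and 40.3% lower. Within the slide of the shTug1 arrays, 5 member probes were higher and 5 lower in clone 3 than in clone 2 with no overlap, where 56.4% of all probes were higher and 18.6% lower.

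**Figure D4:**
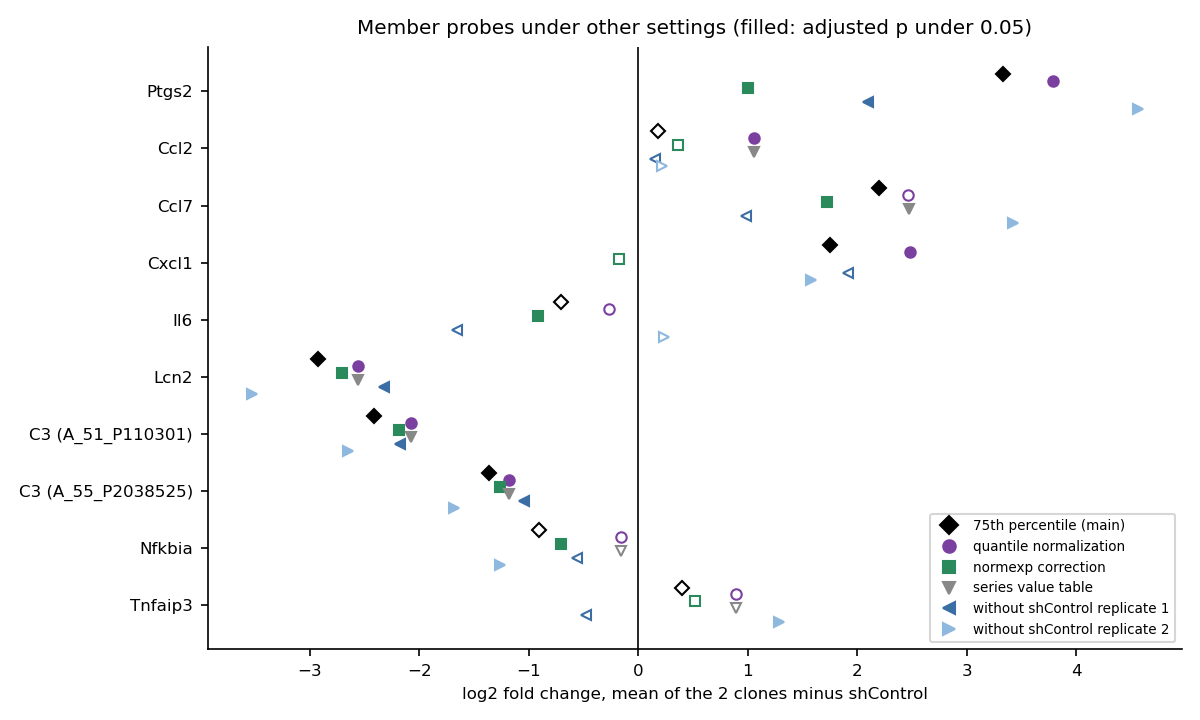
Log2 fold change of each member probe, mean of both clones minus shControl (x axis), under the main scaling and 5 other settings, filled where the adjusted p was under 0.05. Lcn2 and C3 stay below 0 in every setting drawn, Ccl2 is filled at 1.06 with quantile normalization and with the series value table, and Tnfaip3, Il6 and Cxcl1 lie on both sides of 0.

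The members also differed in which genes of the array followed them. For the 3 members with the highest mean signal, the genes with the most alike pattern over the 6 arrays were I730030J21Rik, Tmem239 and Dcaf12l2 for Ccl2 (Pearson r 0.986 to 0.992). For Nfkbia they were Foxo6, Nans and H4c12 (0.998 each), and for Tnfaip3 Pcbp1, Zdhhc13 and Selenof (0.995 each), out of 14944 probes with a gene symbol that were well above background on all 6 arrays. With 6 arrays in 3 groups of 2, many probes share a pattern, so these values are a description. Among the members, Lcn2 followed the C3 probe printed once (r = 0.999) and Ccl7 followed Ptgs2 (r = 0.947), while Nfkbia ran opposite to Ptgs2 (r = −0.953).

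The 7 lists of pathway genes, drawn from general knowledge and including Nfkbia and Tnfaip3 among the brakes, were read on each gene's brightest probe. Of 146 genes 145 were on the array and 116 were tested: 20 rose over both clones, 31 fell and 65 did not pass (limma), against the 39.4% of all probes that passed. With all arrays 51 genes passed. Most of these calls were lost when either clone 3 array was left out, which leaves 1 array in that group. Most calls over all probes were lost there too, so this loss is not particular to the lists. For the NF-κB subunits, 1 of 4 tested passed. Rela, the p65 subunit, fell by 1.00 on the log2 scale (adjusted p = 0.0467), which was −0.15 (adjusted p = 0.551) after quantile normalization. Of the 11 IκB family members and brakes tested, 1 rose and 4 fell, with a median of −0.91. Quantile normalization gave 1 rise and 3 falls (median −0.41, all probes −0.18) and normexp correction 0 and 8 (median −0.71, all probes −0.71). Of all 25544 probes, 3451 rose and 3438 fell with quantile normalization, and 2552 rose and 14540 fell with normexp correction. The counts of each list under these settings are read against those. Bcl3, a nuclear IκB, was 4.58-fold lower (adjusted p = 0.0102). Nfkbib (IκBβ) was −1.80 (adjusted p = 0.0218) on its brightest probe, while its other probes read −0.75 and 1.00. Nfkbiz (IκBζ), not well above background in shControl, was at least 1.12-fold higher (adjusted p = 0.047) and changed sign in 1 of 12 alternatives. That was normexp correction, where Nfkbiz passed as lower (−0.59). Its call was lost with no filter on dim probes and with the replicate block. Like Birc2, Il1rap, Tnfsf13b and Lif below, Nfkbiz entered the tests only through the clones, where it was high.

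Among the 24 genes of the IKK complex and its adaptors, 6 rose and 7 fell, with a median of 0.59 against −0.57 over all probes. Quantile normalization gave 8 rises and 2 falls (median 0.76, all probes −0.18). Normexp correction gave 6 and 8, with the median turned to −0.06 (all probes −0.71). Birc2 (cIAP1, a ubiquitin ligase of the TNF receptor complex) was 10.8-fold higher over both clones (3.43 ± 0.93 SE, limma adjusted p = 0.0277). It read −0.19, −0.57, −0.44 and −0.32 in the arrays labelled shTug1, against −5.81 and −1.81 in shControl, of which 1 was well above background, and the difference was 1.43 without shControl replicate 1 and 5.43 without shControl replicate 2. The TAK1 partner Tab2 was 4.83-fold higher (2.27, adjusted p = 0.0188), while Tab1, which also binds TAK1, was 3.51-fold lower (−1.81, adjusted p = 0.0205). Traf2, the adaptor of TNF receptors, was −1.73 (adjusted p = 0.0244) and −0.83 (adjusted p = 0.056) on its other probe.

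Of 15 upstream receptors tested, 4 rose and 2 fell, with a median of −0.14. Quantile normalization gave 4 rises and 0 falls (median 0.19, all probes −0.18) and normexp correction 1 and 3 (median −0.21, all probes −0.71). The TWEAK receptor Tnfrsf12a was 4.79-fold higher (2.26 ± 0.41 SE, limma adjusted p = 0.013), and Il1rap, the shared chain of the IL-1 receptor, was at least 2.56-fold higher (adjusted p = 0.0175) and not well above background in shControl. The lymphotoxin receptor Ltbr was −1.51 (adjusted p = 0.0218) and lost its call with quantile normalization, as did Il17rc (−1.58, adjusted p = 0.0327), whose other probe read 0.60. Of 5 ligands tested, Tnfsf13b (BAFF) rose by 2.19 (adjusted p = 0.028, 1 of 2 shControl arrays well above background). Lta (lymphotoxin α) fell by 1.20 (adjusted p = 0.0222), while the other 3 did not pass on their brightest probes. Of these, Tnfsf12 had another probe that passed (−1.5, adjusted p = 0.0477). For the ligands, quantile normalization gave 0 rises and 1 fall (median −0.67, all probes −0.18) and normexp correction 1 and 3 (median −0.73, all probes −0.71).

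Of 31 other NF-κB targets tested, 5 rose and 7 fell, with a median of −0.32. Quantile normalization gave 6 rises and 2 falls (median 0.11, all probes −0.18) and normexp correction 5 and 14 (median −0.54, all probes −0.71). Ier3, an immediate early gene, was 5.72-fold higher (2.51 ± 0.29 SE, limma adjusted p = 0.00575) and passed under all 14 alternatives. It read 2.50 and 2.20 in clone 2, 3.11 and 2.95 in clone 3, and 0.12 and 0.23 in shControl. Lif, an IL-6 family cytokine, rose by 2.56 (adjusted p = 0.0262) with 1 shControl array well above background. Tnfaip6 (TSG-6, a hyaluronan-binding protein) fell by 2.65 (adjusted p = 0.0148, its other probe at −0.76). Tnfaip6 passed the filter only through shControl, where it was high, and among the arrays labelled shTug1 only 1 of 4 measured it, so this size is not exact. Zc3h12a (regnase-1, which degrades inflammatory mRNAs) fell by 2.03 (adjusted p = 0.0176).

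Among 26 tested receptors and partners of the members' products, 3 rose and 9 fell, with a median of −0.78. Quantile normalization gave 5 rises and 6 falls (median −0.32, all probes −0.18) and normexp correction 3 and 17 (median −0.83, all probes −0.71). Il6st (gp130, the signalling chain for IL-6) was 6.40-fold higher (2.68 ± 0.50 SE, limma adjusted p = 0.0134), at 3.35 and 2.51 in clone 2, 3.31 and 3.77 in clone 3, and −0.24 and 1.36 in shControl. The complement inhibitor Cd59a was 3.93-fold higher (adjusted p = 0.0177). The prostaglandin receptor Ptger1 was 4.62-fold lower (−2.21, adjusted p = 0.0171), and Itgam, a chain of the C3 fragment receptor, 4.12-fold lower (−2.04, adjusted p = 0.00958) on its brightest probe, with its other probes at −0.75 and −0.96. Of the list genes named, Rela, Nfkbib, Birc2, Il17rc, Ltbr, Tnfsf13b and Lif lost their call with quantile normalization, Il1rap and Lif with normexp correction, where Nfkbiz turned to −0.59, and all but Lif and Ier3 without clone 3 replicate 2.

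**Figure D5:**
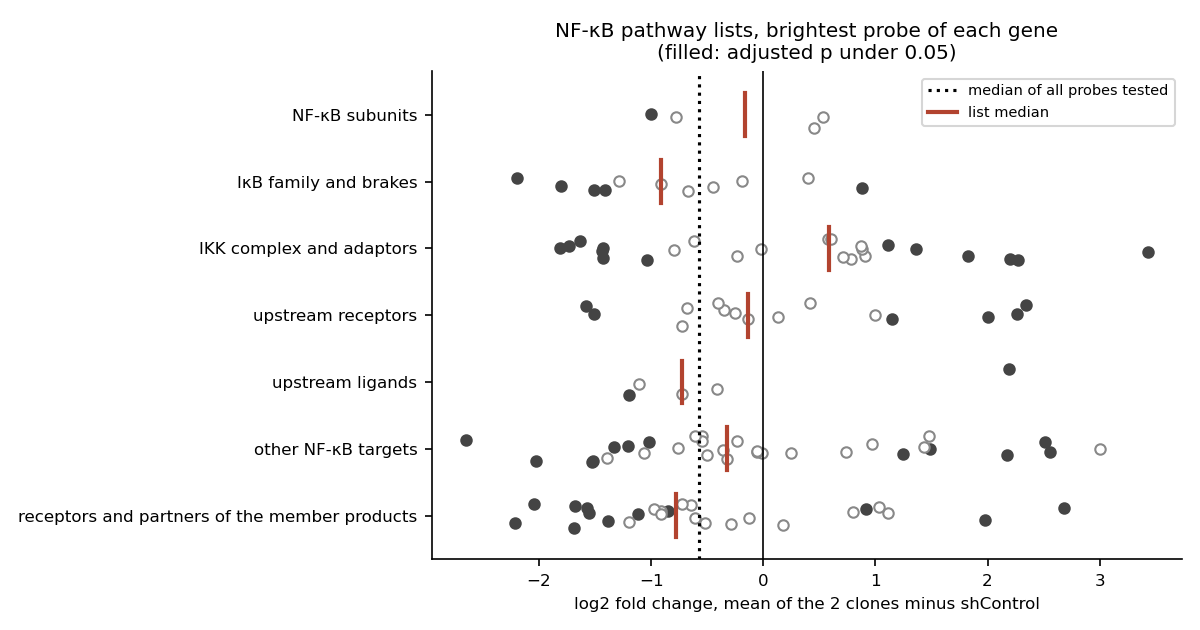
Log2 fold change, mean of both clones minus shControl (x axis), of each gene in the 7 pathway lists on its brightest probe, 1 point per gene, filled where the adjusted p was under 0.05, with the list median in red and the median of all probes, −0.57, dotted. The IKK and adaptor list has a median of 0.59 and the brakes one of −0.91 in this scaling, and each list holds points on both sides of the dotted line.

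Summed marker levels, taken relative to each array's 75th percentile, were lower on the arrays labelled shTug1, though not every marker was. That percentile was itself lower on the shControl arrays, and unscaled sums were not compared. The 9 podocyte markers read here were each well above background on at least 1 array, with Nphs1, Wt1 and Synpo on all 6 and Podxl on only 1. Their summed level on the linear scale was 61.1 to 66.3 times the 75th percentile on the arrays labelled shTug1 against 117 and 127 in shControl. The tubular markers summed to 37.9 to 75.2 on the arrays labelled shTug1, against 316 and 161 in shControl, with Slc12a1 well above background on no array. The 11 macrophage and leukocyte markers on the array summed to 4.71 to 7.58, against 31.3 and 15.7 in shControl, with Lyz2 on no array. Endothelial markers summed to 1.05 to 1.44, against 2.97 and 1.55, with Tek and Emcn on none, and mesangial and stromal markers to 212 to 316, against 550 and 561, with Pdgfra and Des on none. Much of the mesangial and stromal sum was Acta2, much of the tubular sum Cdh16, and much of the macrophage and leukocyte sum Csf1r and Itgam. Over both clones Csf1r differed by −2.94 (limma adjusted p = 0.00846) on the probe summed and by −0.32 (adjusted p = 0.483) on its other probe. The other Itgam probes, at −0.75 and −0.96, did not pass. After quantile normalization Acta2 differed by 0.03 and Actn4, a large share of the podocyte sum, by 0.01, against −1.20 and −0.91 in the main scaling. The monocyte marker Cd14 (1.11, limma adjusted p = 0.0435) and another Synpo probe (2.41, adjusted p = 0.021) were higher over both clones. The part of these cells in the results was not tested.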

How the data were processed

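RNA of 6 cultures was read on 1-colour Cy3 Agilent arrays, grouped and numbered as their titles say. Spot intensity in the deposited files is background-subtracted output of Agilent Feature Extraction (version 11.0.1.1), per the file headers and the submitters' processing notes. A deposited series table holds log2 values of 19819 probes, 7 of them member probes. Its column medians were 9.01, 8.98, 9.11 and 9.09 on the arrays labelled shTug1 and 9.13 and 9.13 in shControl, so it is not centred. The sources used here do not state its normalization. Its member differences over both clones matched those after quantile normalization, such as −2.56 for Lcn2 in both, with Ccl7 at 2.47 against 2.46. These 2 settings are therefore not read as separate evidence.

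Probes were named by RefSeq accession (27234 of 39429 matched). Each processed signal was scaled to the 75th percentile of gene spots on its array and taken to log2. Repeated spots of a probe were averaged, without controls and outlier-marked spots. Tests covered probes that were well above background, on at least 0.5 of their spots, in the full pair of arrays of some group (25558 probes, 14 of them lost to outlier marks, leaving 25544). limma 3.58.1 in R 4.3.3 fitted 3 group means to all 6 arrays (3 residual and 4.61 prior degrees of freedom), with two-sided tests, p-values adjusted by Benjamini-Hochberg across the probes tested and a threshold of 0.05. An exact permutation of 4 arrays against 2 cannot give a p below 0.0667, so none was run. For a bound, a dim array took the lowest signal that was well above background on it, or its own signal where that was higher. The model was also run on simulated data. These had no slide difference and no shift of all probes, so they cannot show whether the calls hold here.

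The members and lists were chosen with earlier results of these data known. Every member probe is named, with the 2 largest rises and 2 largest falls past the threshold per list, the genes most alike the 3 members of highest mean signal, and Tug1. From the podocyte markers 1 gene is not reported here. Same-numbered arrays deviated from their group means with correlations of −0.091, −0.034 and 0.124 between groups, so the numbers were not taken as pairs. The alternatives were normexp correction (offset 50), quantile normalization, median scaling, no filter, a stricter filter, 1 probe per gene, the series table, a replicate block, only the groups compared, and leaving out each array. No mean-signal column was given, so normexp used the median signal in its place. The arrays' number limits the precision.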

Additional observations from a re-analysis of the deposited data

How the results depend on the processing

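Of 562 recomputed log2 differences of member probes, 494 kept their direction and side of the threshold, 24 newly passed, 32 no longer passed and 12 changed direction. The cause of a change was not tested. With normexp correction Cxcl1 turned to −0.18 over both clones and −0.41 in clone 3, and Il6 to −0.78 in clone 2. With quantile normalization and with the series table Nfkbia turned to 0.01 in clone 3 and Ccl2 to −0.44 in clone 3 minus clone 2. Without shControl replicate 1, Tnfaip3 turned in all 3 comparisons with shControl and Il6 in clone 2. Leaving out either shControl array gave Tnfaip3 values of −0.48 to 1.28 over both clones, −0.27 to 1.48 in clone 2 and −0.68 to 1.07 in clone 3, and Il6 values of −1.66 to 0.23 over both clones (0.23 without replicate 2) and −0.48 to 1.41 in clone 2. Leaving out 1 array at a time gave 2 to 8 called member probes over both clones (6 with all arrays; 3 without clone 3 replicate 1 and 2 without clone 3 replicate 2). It gave 5 to 8 in clone 2 (7 with all arrays) and 0 to 6 in clone 3 (2 with all arrays). Clone 3 had 0 without either of its own arrays, 1 without shControl replicate 1 and 6 without shControl replicate 2, and had 5 with normexp correction. For clone 3 minus clone 2, 0 became 1 with normexp correction, with only the groups compared and without some single arrays (0 to 1). The pathway lists had 3 to 82 called genes (51 with all arrays). The replicate block, fitted although the numbers did not pair the arrays, gave 6, 7, 3 and 1 called member probes over both clones, in clone 2, in clone 3 and in clone 3 minus clone 2, where it added Il6 in both of the last comparisons (adjusted p = 0.0351 and 0.0288).

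Over all probes the calls depended on the setting. The mean of both clones had 10054, with 17092 after normexp correction, 6226 with the series table and 718 to 16535 without 1 array. Of its calls 14.9% were higher with normexp correction and 38.3% with the series table. Clone 2 had 11046, with 17722 after normexp correction, 6895 after quantile normalization, 6226 with the series table, 5877 with only the groups compared and 4124 to 17538 without 1 array. Clone 3 had 2297, with 7939 after normexp correction, 978 without a filter and 0 to 13105 without 1 array. Clone 3 minus clone 2 had 475, with 144 after quantile normalization, 260 without a filter, 44 with the stricter filter, 272 with 1 probe per gene, 0 with the series table, 719 with the replicate block, 831 with only the groups compared and 0 to 976 without 1 array. With the stricter filter Ptgs2, Cxcl1 and Il6 were not tested, and the series table lacks them. Signal over background limits Cxcl1, Il6 and Icam1 most.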

Other observations

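Ccl2 and Ccl7 lie in a chemokine cluster on chromosome 11, and its other members were looked up after these values were seen. Ccl8 (MCP-2) was well above background on all 6 arrays, at −0.94 and −0.82 in clone 2, 0.27 and 0.46 in clone 3, and 1.48 and −0.14 in shControl. Its difference over both clones was −0.93 (limma adjusted p = 0.134), against 2.20 for Ccl7, and the shControl arrays spanned the clone 3 values. Ccl11 and Ccl12 were well above background on no array and Ccl1 on 1, clone 3 replicate 2 (−3.20).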
